A study of Drosophila melanogaster with 6 samples.

Results

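The genes described here are 47 non-Hox homeodomain transcription factor genes of Drosophila melanogaster, HGTX, ara and caup among them, taken by gene name from a table of 17807 genes. All 47 names were found in it, and 44 passed the filter on low counts. They were measured in brains of pupae 24 h after puparium formation by poly(A)-selected RNA sequencing. The comparison was between 3 WT libraries and 3 libraries of TetAXXC, a stock whose CXXC zinc finger domain of Tet was mutated by Cas9-directed homologous repair. Per the labels' protocols, donor DNA was injected into a nos-Cas9 stock, the DsRed marker was then excised with a piggyBac source, and 30 brains were collected per genotype; whether this is the number for each replicate or for all 3 together is not clear from them. The protocols describe the replicates of each genotype as independent. The origin of the WT stock and the sex of the pupae are not given in the labels.

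A homeodomain is a DNA-binding fold of helices that recognises short AT-rich sequences. In the nervous system, neurons of a kind hold a combination of homeodomain factors, and these combinations are known to set transmitter choice, axon targets and dendrite form. Many of the same genes act earlier, when neuroblasts, the optic lobe and the eye field are patterned. The genes fall into classes by sequence: Pax genes with a paired domain, TALE genes with an enlarged homeodomain (the Iroquois genes among them), NK-like, Paired-like, LIM, POU, sine oculis-type and CUT genes, genes with added zinc fingers, and non-Hox relatives of the Antennapedia class. Poxn was listed among them although its protein is known for a paired domain without a homeodomain.

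Library totals ranged from 17861742 to 19521285 counts. Neuronal markers were high in both genotypes: elav lay between 440 and 520 counts per 1000000 counts of the library (CPM), and of 12 neuron markers tested 0 passed the edgeR threshold given below, with 1 at an unadjusted p under 0.05. The glial marker repo was at 140 to 162 CPM. Among 9 glia markers, 5 were lower in TetAXXC, and the list summed to 1197 to 1260 CPM in WT against 1085 to 1165 CPM in TetAXXC. Of 16 testis markers tested, 11 were higher in TetAXXC, with a summed level of 54.2 to 100.4 CPM in WT against 191 to 497 CPM in TetAXXC. The 4 Hox genes that mark the ventral nerve cord summed to 19.5 to 30.5 CPM in WT against 20.2 to 25.5 CPM in TetAXXC. Ring gland and muscle markers were present in both groups, and none of them passed the threshold.

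Of the homeodomain genes, 4 fell in TetAXXC: toy, HGTX, ara and caup. HGTX lost most of its signal, to 29.8% of the WT level, while toy, ara and caup fell to 77.7%, 81.4% and 85.6% of it. Of the 44 genes tested, 4 were lower and 0 higher, and 40 did not pass the threshold. The threshold was a p under 0.05 in edgeR's quasi-likelihood test after Benjamini-Hochberg adjustment over all 11198 genes tested; this adjusted p is written FDR, and SE is the standard error of the log2 fold change. Over all these genes 15.2% passed it, 3.17% lower and 12.1% higher in TetAXXC. The shares among the homeodomain genes were 9.09% lower and 0% higher. These shares depended on the level of the genes: in the same fit 4.59% of the 6320 genes of at least 4 log2 CPM were lower and 3.02% higher, and of the 25 homeodomain genes among them 3 were lower. At an unadjusted p under 0.05 there were 10 of 44 homeodomain genes, where 26.4% of all genes had one. With the DESeq2 Wald test 5 homeodomain genes were lower, the same 4 and toe, and 2 were higher, achi and Rx. That test called 21.5% of all genes, 6.47% lower and 15% higher. The median log2 fold change was 0.01 over the 44 genes and 0.00 over all genes tested. The median absolute log2 fold change was 0.11 for the homeodomain genes and 0.12 for all genes. In a bulk library, fewer cells that express a gene and less RNA of it per cell cannot be told apart.

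The 4 calls did not rest equally on the libraries. The number of homeodomain genes past the threshold dropped to 1 when WT replicate 2 or WT replicate 3 was left out, and that gene was toy each time. In these fits the share of all genes called dropped as well, to 0.462% and 0.891%. The number was 2 (toy and HGTX) when the library left out was WT replicate 1, TetAXXC replicate 1 or TetAXXC replicate 3. The share of all genes called was then 11%, 9.6% and 7.97%, in that order. Without TetAXXC replicate 2 the number stayed at 4, with 18% of all genes called. With replicate number as a block, 6 genes passed it, the same 4 with toe lower and Rx higher. Over all genes the blocked shares were 21.1% in either direction, 5.31% lower and 15.8% higher.

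**Figure D1:**
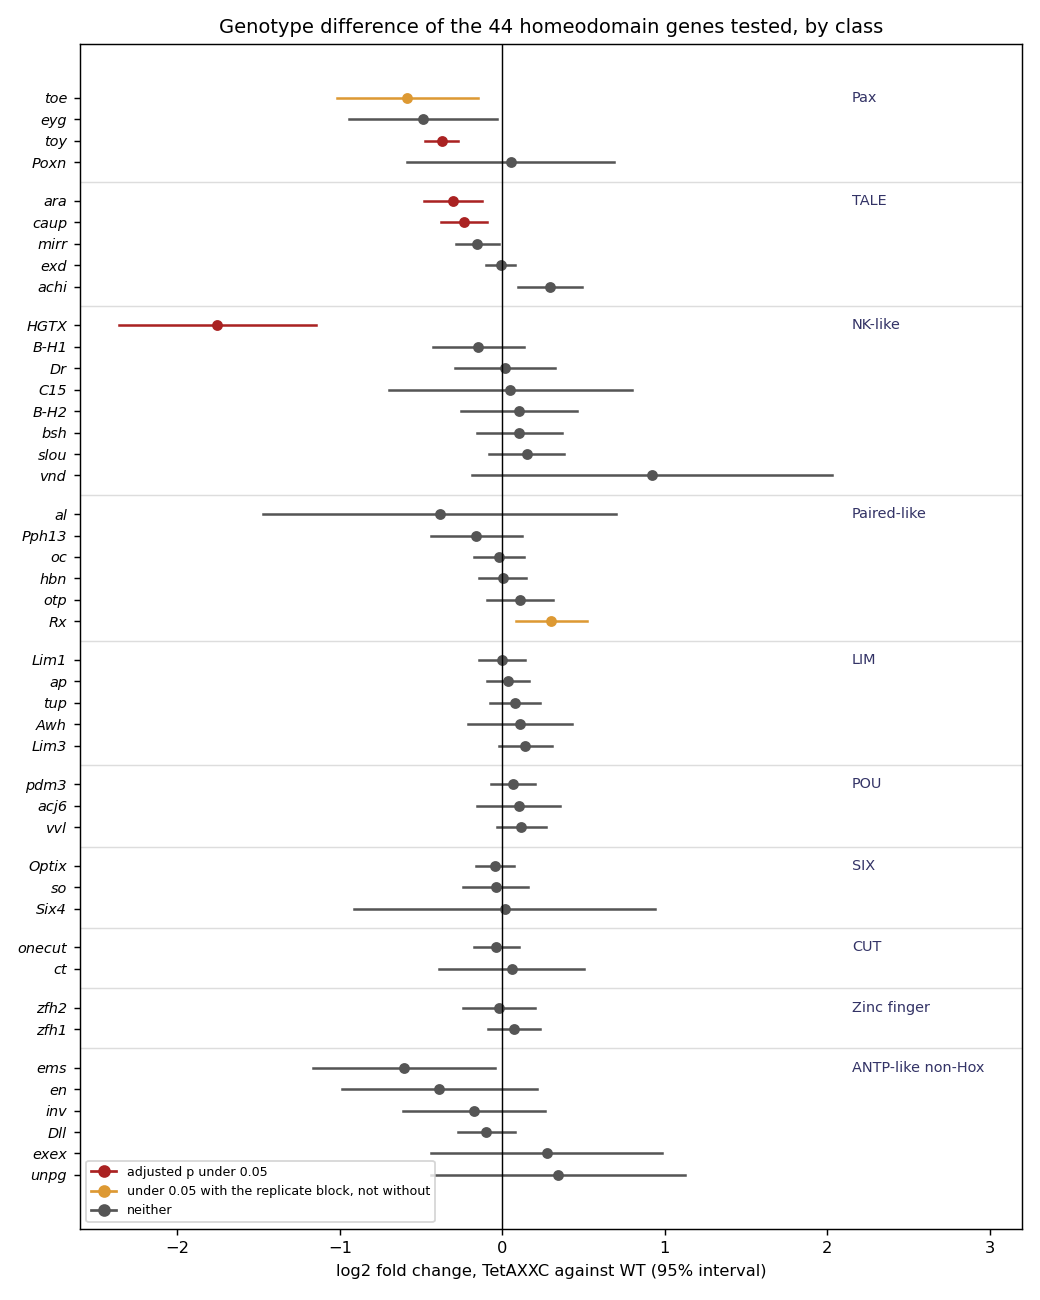
Log2 fold change of each of the 44 homeodomain genes tested, TetAXXC against WT, with its 95% interval, grouped by class. Red marks the 4 genes with an FDR under 0.05, orange marks toe and Rx, which passed with the replicate block and not without it, and HGTX lies farthest from 0 at -1.75.

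Among the Pax genes, toy (twin of eyeless) is a Pax6 homolog that acts upstream of eyeless in eye formation and is also used in brain neurons such as those of the mushroom body. Its gene lies on chromosome 4 (989725 to 1007922, plus strand, in Release 6 coordinates as deposited). The level of toy was 304, 295 and 301 CPM in WT replicates 1, 2 and 3 against 223, 233 and 244 CPM in TetAXXC replicates 1, 2 and 3. Every TetAXXC library lay below every WT library, and the gap was wider than the range within either group. On the log2 scale the difference was -0.37 (SE 0.04; edgeR FDR 0.0117). The call held in all 14 alternative settings, with a difference from -0.41 to -0.35 and an FDR of at most 0.0437, reached without WT replicate 2.

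The other fly Pax6 gene, eyeless (ey), was compared as a relative outside the 47. It lay at 79.7, 84.1 and 74.4 CPM in WT against 75.2, 81.2 and 68.8 CPM in TetAXXC, and the groups overlapped. Its log2 difference was -0.09 (SE 0.07; edgeR FDR 0.471). The difference between toy and ey was not tested. Of 8 tested markers of the developing retina, 2 were lower and 0 higher: chp, a photoreceptor adhesion protein, with 485 CPM in WT against 418 CPM in TetAXXC on average, and ninaC, a myosin of photoreceptors, with 92.3 CPM against 43.2 CPM. The summed level of the list was 793 to 891 CPM in WT against 685 to 725 CPM in TetAXXC. The other markers differed in sign on the log2 scale. Values were -0.39 for sens, -0.12 for gl, -0.03 for lz and sev, 0.02 for boss and 0.75 for trpl. Of these, trpl was the lowest in level, with at most 1.49 CPM. The opsin gene ninaE, a defining marker of mature photoreceptors, had at most 0.109 CPM in any library. The part of retinal tissue in the toy result was not tested.

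The paralogs toe and eyg encode Pax proteins that promote eye growth, and they lie side by side on chromosome 3L. The level of toe was 12.6, 11.2 and 14.6 CPM in WT against 9.97, 9.02 and 6.73 CPM in TetAXXC. For eyg it was 8.95, 10.7 and 11.2 CPM in WT against 7.31, 5.89 and 8.91 CPM in TetAXXC. In both genes the groups did not overlap, but for eyg the highest TetAXXC library, at 8.91 CPM, nearly met the lowest WT library, at 8.95 CPM. Their log2 fold changes were -0.59 (SE 0.18) and -0.49 (SE 0.19), and their edgeR FDR was 0.0815 for toe and 0.159 for eyg. In the model with the replicate block toe passed the threshold, with an FDR of 0.0458, and eyg did not, with 0.0575. Poxn, which is used in taste organs and in central brain neurons, was at 3.81 ± 0.88 CPM in WT against 3.97 ± 0.80 CPM in TetAXXC (SD, n = 3 each). The segment-polarity relative gsb-n had 4 to 14 counts per library and was not tested.

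Among the TALE genes, ara, caup and mirr form the Iroquois complex, which patterns the thorax, the wing veins and the dorsal eye and is also active in the brain. They lie in a row on the plus strand of chromosome 3L, ara from 12580672 to 12596018, caup from 12609631 to 12621798 and mirr from 12693639 to 12710249. The level of ara was 24.1, 24.3 and 21.4 CPM in WT against 19.0, 19.5 and 18.3 CPM in TetAXXC. That of caup was 31.9, 31.5 and 31.0 CPM in WT against 26.2, 28.6 and 26.0 CPM in TetAXXC. All TetAXXC libraries lay below all WT libraries in both genes, and the SD of caup in WT was 1.49% of its mean.

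ara fell by 0.31 on the log2 scale (SE 0.08; edgeR FDR 0.0378), and caup fell by 0.23 (SE 0.06; FDR 0.0414). Both calls were near the threshold. Without WT replicate 1, 2 or 3 the FDR of ara was 0.123, 0.133 and 0.0683, and that of caup 0.125, 0.117 and 0.0831. Without TetAXXC replicate 1 or 3 it was 0.0893 and 0.118 for ara and 0.128 and 0.135 for caup. Only without TetAXXC replicate 2 did both still pass, with 0.0487 and 0.0292. Under limma-voom neither passed, with FDR of 0.10 and 0.105, nor without a filter on low counts, with 0.0509 and 0.0537. The same held in the fit restricted to genes of at least 4 log2 CPM, with 0.0979 and 0.117. caup did not pass with upper-quartile factors either (0.0557). The third gene of the complex, mirr, was at 47, 42.7 and 43.8 CPM in WT against 39.3, 41.4 and 40.0 CPM in TetAXXC. Its groups did not overlap either, and the FDR of its log2 fold change of -0.15 was 0.125. The level per kb of exon was 7.17 CPM for ara, 6.76 CPM for caup and 10.9 CPM for mirr over all 6 libraries.

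The other TALE genes differed from the Iroquois genes in their values. exd encodes the cofactor that binds DNA together with Hox proteins and enters the nucleus with Homothorax. It lay at 493, 506 and 492 CPM in WT against 481, 502 and 508 CPM in TetAXXC, with groups that overlapped. The 95% interval of its log2 fold change ran from -0.10 to 0.08, and its direction changed between settings, from -0.04 without TetAXXC replicate 2 to 0.01 without TetAXXC replicate 1. achi encodes a TGIF-type repressor that is known, with its tandem copy vis, for a role in spermatocyte gene expression. Its level was 18, 20.0 and 20.1 CPM in WT against 25.4, 23.2 and 23.1 CPM in TetAXXC, and all TetAXXC libraries lay above all WT libraries. Its difference was 0.29 on the log2 scale (SE 0.08; edgeR FDR 0.0565), and it crossed the threshold with upper-quartile factors (0.0378), with robust dispersions (0.0497) and with DESeq2 (0.0194). vis was at 3.37, 2.85 and 2.58 CPM in WT against 10.8, 3.64 and 7.22 CPM in TetAXXC, with an FDR of 0.0748 without the replicate block and 0.0151 with it. TetAXXC replicate 1 was the highest library for achi, for vis and for the summed testis markers. The part of testis RNA in the achi values was not tested, and reads of achi and vis may be split between these near-identical copies.

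HGTX had the largest difference of the 44 genes. It is the fly Nkx6 gene, a repressor known from the embryonic nerve cord for promoting motor neurons that project ventrally, together with Lim3, tup and exex. The gene lies on chromosome 3L, 14583222 to 14599540, minus strand. Its level was 14.2, 25.6 and 17.1 CPM in WT replicates 1, 2 and 3 against 5.48, 4.56 and 6.90 CPM in TetAXXC replicates 1, 2 and 3. The groups were clearly apart, and the WT libraries differed among themselves, with replicate 2 the highest. Summed muscle markers were highest in the same library, at 131, 268 and 140 CPM in WT against 135, 170 and 177 CPM in TetAXXC. Ring gland markers were highest there too, at 91.4, 139 and 62.1 CPM in WT against 95.5, 134.5 and 67.4 CPM in TetAXXC. So were fat body markers, at 1635, 1797 and 1220 CPM against 1054, 1507 and 1025 CPM. HGTX was lowest in TetAXXC replicate 2, where ring gland and fat body markers were highest within TetAXXC. Muscle markers were highest within TetAXXC in replicate 3. The part of such tissue in the HGTX values was not tested. HGTX fell by 1.75 on the log2 scale (SE 0.26; edgeR FDR 0.0167), a fitted level 0.297 times that of WT. Without WT replicate 2 the change was -1.49 with an FDR of 0.0786, and without WT replicate 3 it was -1.84 with 0.0667. Under limma-voom it was -1.74 with an FDR of 0.0572. In the other 10 settings that kept the gene it passed the threshold.

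The motor neuron factors that act with HGTX in the embryo were set beside it. Lim3 was at 34.5, 31.3 and 34.9 CPM in WT against 37.9, 35.9 and 38.1 CPM in TetAXXC, so that its TetAXXC libraries lay above its WT libraries by a small margin. Its edgeR FDR was 0.260. tup, the fly Islet gene, was at 72.7, 65.0 and 68.3 CPM in WT against 68.2, 73.4 and 77.3 CPM in TetAXXC, with an FDR of 0.546. exex, the HB9 homolog, lay at 3.36 ± 0.90 CPM in WT against 4.08 ± 0.87 CPM in TetAXXC (SD, n = 3 each), with an FDR of 0.658. eve, a determinant of dorsally projecting motor neurons, had 1 to 9 counts per library and was not tested. None of these genes was lower in all TetAXXC libraries than in all WT libraries.

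**Figure D2:**
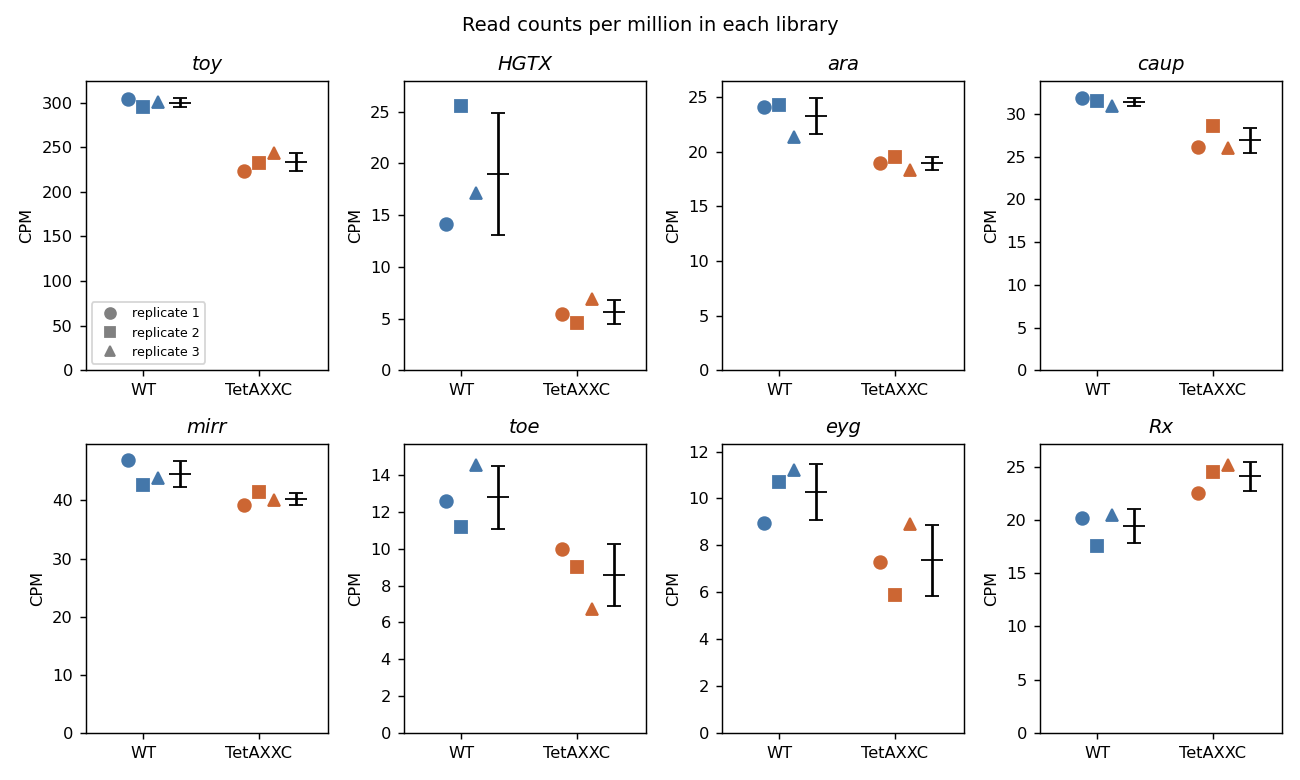
CPM of 8 homeodomain genes in each library, 1 symbol per replicate, with the mean and SD of each group in black on axes that start at 0. The 3 TetAXXC points lie below the 3 WT points for toy, HGTX, ara, caup, mirr, toe and eyg and above them for Rx.

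The other NK-like genes did not pass the threshold. vnd and ind, which with Dr set the columns of the embryonic neuroectoderm, were close to the lower limit of detection. vnd had 9 to 32 counts per library and an FDR of 0.280, and ind had 1 to 5 counts and was not tested. Dr was at 11.4 ± 0.99 CPM in WT against 11.6 ± 1.20 CPM in TetAXXC (SD, n = 3 each). bsh, which specifies medulla and lamina neurons of the optic lobe, was at 21.2 ± 1.28 and 23.0 ± 3.31 CPM. The paralogs B-H1 and B-H2, used in sensory organs, eye and optic lobe, had log2 fold changes of -0.15 and 0.10 with edgeR FDR of 0.521 and 0.762. slou, known as a muscle founder gene, lay at 10.7 to 11.1 CPM in WT against 11.9 to 12.5 CPM in TetAXXC, with groups that did not overlap and an FDR of 0.417.

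Of the 6 Paired-like genes, 0 passed the edgeR threshold in the unblocked fit, and 1, Rx, had an unadjusted p under 0.05. Rx, otp and hbn lie within 77.3 kb of chromosome 2R (20883625 to 20960909) and are all expressed in the embryonic brain. Rx, the retinal homeobox gene, was at 20.2, 17.6 and 20.5 CPM in WT against 22.6, 24.5 and 25.2 CPM in TetAXXC. All its TetAXXC libraries lay above its WT libraries, a log2 difference of 0.30 (SE 0.09; edgeR FDR 0.0762). Rx passed the threshold with the replicate block (FDR 0.0462), and its FDR lay between 0.0311 and 0.205 across the alternatives. Its neighbours had log2 fold changes of 0.11 for otp and 0.00 for hbn, whose 95% interval ran from -0.14 to 0.15. oc (orthodenticle), a head gap gene, lay at 58.9 ± 3.66 and 58.5 ± 2.73 CPM. Pph13, which drives photoreceptor morphogenesis, was at 15 ± 1.66 CPM in WT against 13.5 ± 1.20 CPM in TetAXXC (SD, n = 3 each). al, a gene of the arista and leg tip, had 23 to 68 counts per library.

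The LIM, POU, sine oculis-type, CUT and zinc finger classes held 15 genes, and 0 of them passed the threshold in the edgeR fit, with or without the block. With DESeq2 0 of the 15 passed as well, and their lowest unadjusted edgeR p was 0.0795, that of Lim3. In the LIM class, ap, a selector of the dorsal wing that also marks neuropeptide neurons and medulla neurons, was at 200.1, 192 and 175 CPM in WT against 202, 193 and 189 CPM in TetAXXC. Lim1 had a log2 fold change of 0.00, and Awh one of 0.11. The POU genes pdm3, acj6 and vvl guide the wiring and receptor choice of olfactory neurons. pdm3 was at 275, 261 and 296 CPM in WT against 284, 296 and 295 CPM in TetAXXC. All 3 POU genes had positive log2 fold changes, from 0.06 to 0.12, with edgeR FDR from 0.320 to 0.644.

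Of the sine oculis-type genes, so and Optix belong to the retinal determination network in which toy acts upstream. The log2 difference of so was -0.04 (FDR 0.828), and that of Optix was -0.05 (FDR 0.639). Their 95% intervals ran from -0.24 to 0.16 and from -0.16 to 0.07. Whether their values depend on toy was not tested. Six4, known from mesoderm, had 28 to 67 counts per library and an interval from -0.91 to 0.94.

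ct, a regulator of sensory organ identity and dendrite complexity, had an SD of 22.8% of its mean in WT, where that of exd was 1.53%. It was at 481, 313 and 479 CPM in WT against 414, 395 and 525 CPM in TetAXXC. WT replicate 2 stood below all other libraries, and the groups overlapped. The summed level of 7 neuroblast markers was lowest in the same library, with 1474, 943 and 1543 CPM in WT replicates 1, 2 and 3. Most of that sum was pros (1398, 866 and 1450 CPM), and the next most abundant marker, grh, was lowest in replicate 1. The summed neuron markers were also lowest in WT replicate 2, at 6451, 5166 and 6141 CPM. Within that list fne was lowest there, at 1207, 770 and 1239 CPM, and nSyb was not, at 780.5, 766.2 and 758.7 CPM. Exon lengths were 12443 bases for ct, 24892 for pros, 9516 for fne and 4072 for nSyb. Other neuron markers went the other way. Syx1A, with 4164 bases, was lowest in WT replicate 2, at 108.4, 73.7 and 104 CPM in WT. elav, with 10715 bases, was not, at 519.6, 461 and 452.6 CPM in WT. The parts of cell content and exon length in these values were not tested. onecut, a panneuronal CUT gene, was steadier than ct, with 539, 520 and 496 CPM in WT against 509, 478 and 539 CPM in TetAXXC. zfh1 and zfh2, which carry zinc fingers beside homeodomains, had log2 fold changes of 0.07 and -0.02. Of the exon sequence of zfh2, 18.7% lies opposite an exon of Thd1, so its counts depend on the strand setting, which is not given in the sources used here. The same holds to a lesser extent for zfh1 (4.6%), otp (9.5%) and eve (16.7%), which lie opposite antisense RNA genes.

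The non-Hox relatives of the Antennapedia class held 8 genes, of which 6 were tested; 0 passed the edgeR threshold and 1 had an unadjusted p under 0.05. That 1 was ems, a head gap gene that also acts in olfactory projection neurons. It was at 5.42, 5.49 and 5.93 CPM in WT against 4.80, 3.07 and 3.26 CPM in TetAXXC, with groups that did not overlap. Its log2 difference was -0.60 (SE 0.24; edgeR FDR 0.157). The paralogs en and inv, selectors of posterior compartments, had log2 fold changes of -0.39 and -0.17, and in each the libraries of the groups overlapped. Dll, the limb selector, was at 47.3, 48.9 and 56.0 CPM in WT against 47.0, 49.3 and 46.8 CPM in TetAXXC. unpg had 21 to 41 counts per library.

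The precision of the comparison differed widely among the 40 genes that did not pass the threshold. For 28 of them the 95% interval of the log2 fold change lay inside a change of 1.5-fold in either direction, and for 35 it lay inside 2-fold. For 5 genes, al, ems, toe, unpg and vnd, it reached beyond 2-fold. These widths describe the precision of each estimate and are not limits of detection. The intervals of toe (-1.02 to -0.15) and ems (-1.17 to -0.04) reached beyond 2-fold and still excluded 0. Counts per library ran from 1 in eve and ind to 10240 in onecut.

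Levels per exon length spanned about 3 orders of magnitude. exd was the highest at 150 CPM per kb over the 6 libraries, followed by onecut at 76.2, toy at 68.0, pdm3 at 52.9 and ap at 44.4 CPM per kb. In WT, toy and onecut could not be separated, with 76.6 and 76.9 CPM per kb. In TetAXXC toy lay at 59.5 CPM per kb, below all onecut libraries. HGTX was at 6.29 CPM per kb in WT, close to Rx at 5.94 and ara at 7.91, and at 1.87 CPM per kb in TetAXXC, close to exex at 1.72. The lowest tested gene was vnd at 0.226 CPM per kb.

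**Figure D3:**
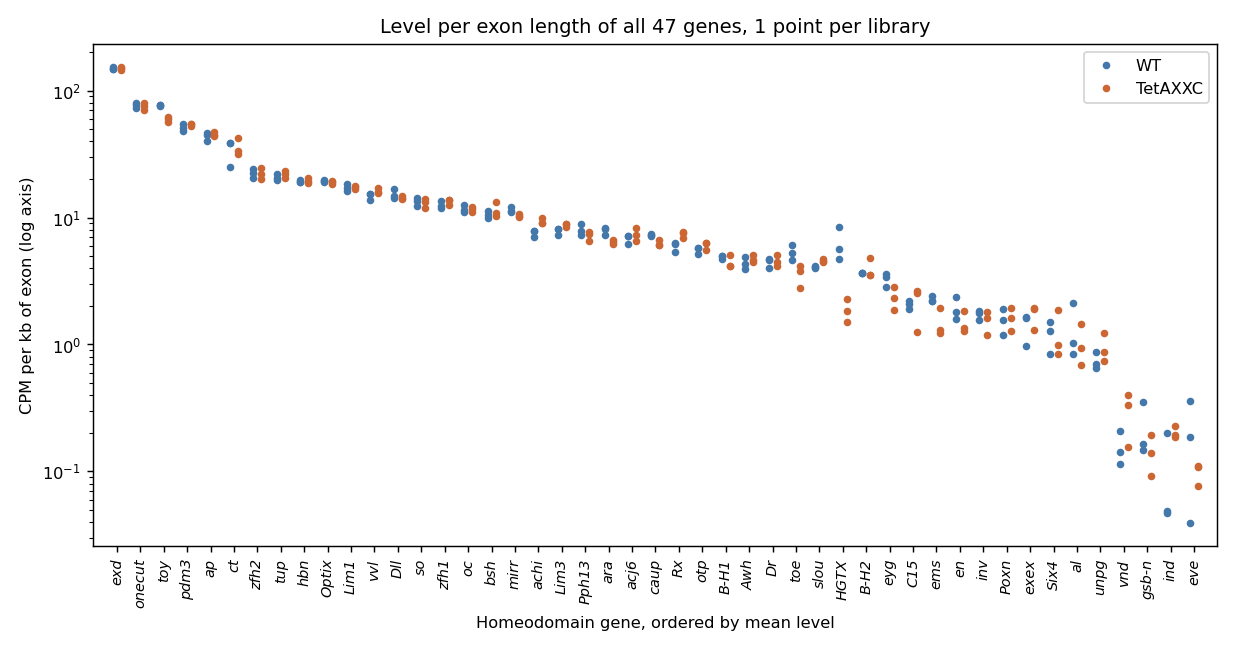
CPM per kb of exon on a log axis for all 47 homeodomain genes, ordered by their mean, with 1 point per library. The points of both genotypes coincide for most genes, from exd at 150 to eve at 0.147, while the TetAXXC points of HGTX and toy lie below their WT points.

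Across the 44 genes, the libraries of the genotypes did not overlap in 13. They were lower in TetAXXC for 8, namely toy, HGTX, ara, caup, mirr, toe, eyg and ems, and higher for 5, namely achi, Rx, Lim3, vvl and slou. These are 18.2% and 11.4% of the genes, where the same held for 10.7% and 21.4% of all genes tested. The homeodomain genes had longer exons than genes at large, with a median of 3145 bases against 1970, and a longer span, with a median of 12498 bases against 2544. None of the 47 shared exon sequence with a gene on the same strand.

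Chromosome 3L, which also carries Tet, held 10 of the 44 tested genes and 3 of the 4 calls. Among these calls are the neighbours ara and caup, 13613 bases apart. Distances from Tet were not examined. Of the 2198 genes tested on 3L 3.32% were lower, and elsewhere the share ran from 2.19% (X) to 4% (chromosome 4). The fourth call, toy, lies on chromosome 4, which also carries zfh2 and onecut, neither of them past the threshold. There 4 of the 100 genes tested were lower. The stretch of 3L from toe to mirr (12422510 to 12710249, 288 kb) holds 5 of the homeodomain genes, toe, eyg, ara, caup and mirr, and in all 5 the TetAXXC libraries lay below the WT libraries. This stretch was chosen after its values were seen. Of the 25 other genes tested in it, 4 had TetAXXC libraries below all WT libraries and 3 had them above, and 3 (CG10638, nst and Tsf2) passed the threshold, all lower. Their median log2 fold change was -0.08. The stock background was not measured separately from the Tet edit, so they cannot be told apart.

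Some genes near HGTX differed as well. Of 12 genes tested within 50000 bases, 2 were lower and 2 higher in TetAXXC. Over all genes tested 3.17% were lower and 12.1% higher. shd, which encodes the enzyme that makes 20-hydroxyecdysone from ecdysone, lies 14918 bases away and fell by 1.36 on the log2 scale (SE 0.21; edgeR FDR 0.0167). Its FDR was 0.0816 without WT replicate 2, with a difference of -1.15, and 0.0683 without WT replicate 3. CG9628 was lower by a smaller amount, at -0.22 with an FDR of 0.0492. With a library left out CG9628 passed the threshold only without TetAXXC replicate 2, and its FDR otherwise lay between 0.0578 and 0.182. The 2 higher genes, CG43246 and CG42758, had log2 fold changes of 2.83 and 3.30. Around toy, 1 of 11 genes tested passed the threshold, asRNA:CR44030, at 0.80 with an FDR of 0.0064. The gene nearest to toy, PlexA, did not, at -0.05 with 0.751. Genes near homeodomain genes that did not pass the threshold differed too. In windows of the same size, 7 of 10 genes tested around pdm3 were higher. Around Rx 3 of 11 were higher and 1 lower, and around mirr 0 of 10 passed.

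Partners of these factors were measured in the same libraries. Of the 7 genes listed, 0 passed the edgeR threshold and 0 had an unadjusted p under 0.05. hth, the partner of exd, was at 303, 226 and 335 CPM in WT against 263, 269 and 364 CPM in TetAXXC, with WT replicate 2 the lowest. Chi, the cofactor of LIM proteins, had a log2 fold change of 0.03, with a 95% interval from -0.04 to 0.11. eya, the coactivator of so, had one of -0.08 and an edgeR FDR of 0.548.

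A list of 39 other homeodomain genes was compared in the same fit. Of these, 31 were tested, 1 was higher and 0 were lower, where 12.1% of all genes tested were higher and 3.17% lower. The median log2 fold change of the list was 0.04. With the replicate block 2 were higher, vis being the other, where 15.8% of all genes were higher. The gene that rose was Drgx, a Paired-like gene, at 60.4, 62.5 and 60.1 CPM in WT against 69.1, 71.4 and 66.8 CPM in TetAXXC. It rose by 0.17 on the log2 scale (SE 0.04; edgeR FDR 0.0319), and its groups did not overlap. It did not pass once any single library was removed, and its FDR then lay between 0.0568 and 0.142.

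**Figure D4:**
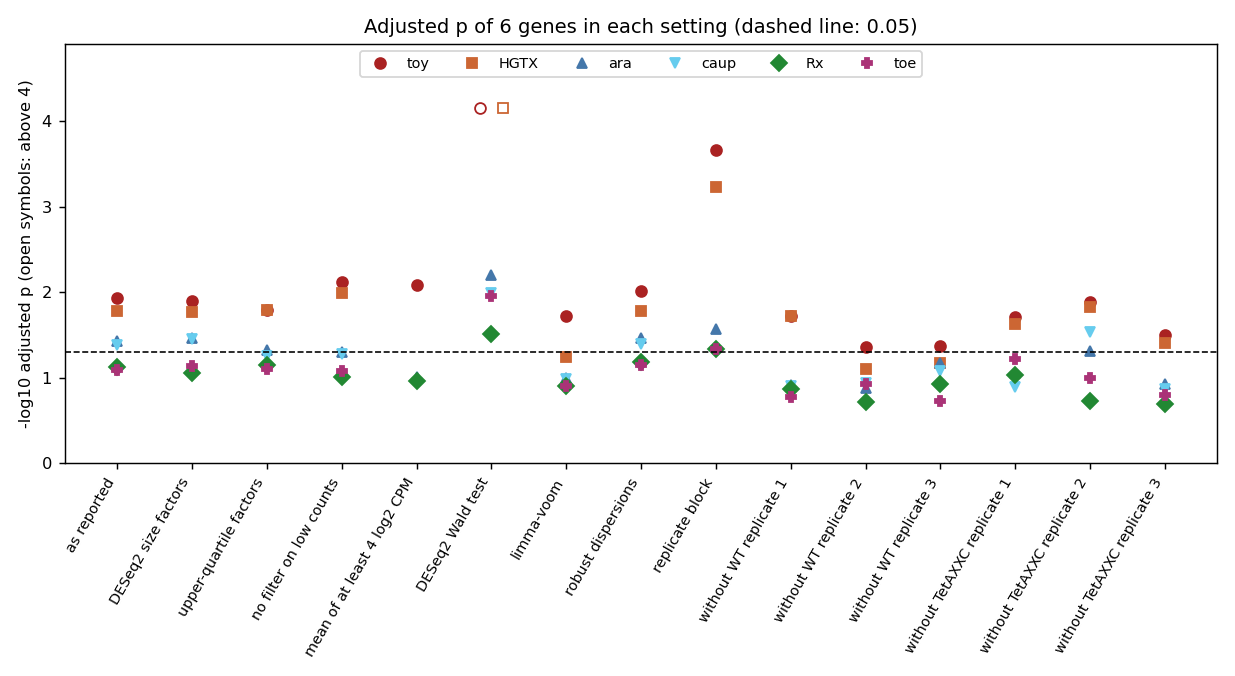
Minus log10 of the FDR of 6 homeodomain genes in the setting reported and in 14 alternatives, with the threshold of 0.05 as a dashed line. Only toy lies above the line in every setting, and HGTX and toe are missing where genes were restricted to a mean of at least 4 log2 CPM.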

How the data were processed

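The authors deposited raw counts of reads for each gene and library, beside exon coordinates and exon length, in the layout of a featureCounts table per the file headers. The submitters' processing notes name Trimmomatic 0.39, HISAT2, SAMtools, featureCounts and DESeq2 and the builds BDGP6 and dm6. Their settings, strand use included, are not given in the sources used here. All 47 genes had the same coordinates in Ensembl release 115.

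CPM were computed here from the total count of each library, and CPM per kb from the deposited exon length. Genotype was tested across the whole table with edgeR 4.0.16 in R 4.3.3: filterByExpr (minimum count 10, minimum total 15), TMM factors, estimateDisp, glmQLFit and glmQLFTest, two-sided, Benjamini-Hochberg over 11198 genes. The threshold was 0.05. Standard errors were derived from the coefficient and its F statistic, and 95% intervals are for each gene alone. The fitting code was tested on simulated counts. Replicates of a group differed by more than sampling noise (chi-square per degree of freedom 6.94 to 17.8), and all 6 libraries were kept.

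Deviations from the group means correlated between libraries with the same replicate number at 0.652, 0.419 and 0.343 over all genes tested. The numbers were therefore taken to pair the libraries, but libraries with different numbers were not correlated for comparison. This pairing is an assumption drawn from the data, not from the labels. Over the homeodomain genes alone the correlations were -0.387, 0.128 and -0.09. The alternatives were DESeq2 1.42.0, limma-voom (limma 3.58.1), other scalings and filters, robust dispersions, the block and each library left out.

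The genes and the lists were chosen with earlier results of these data known. Described in full were HGTX, ara and caup, genes past the threshold with or without the block, genes with non-overlapping groups and a change of at least 25%, the 5 highest per kb, and their neighbouring paralogs. The other genes, achi and the stretch of 3L among them, were added after their values were seen. The 12 lists were read as counts: none of 4 ventral nerve cord Hox genes, 6 muscle genes and 6 ring gland genes passed the threshold, 1 of 7 neuroblast genes and 2 of 6 hemocyte genes were higher, and 2 of 6 fat body genes were lower. With the replicate block 3 neuroblast genes and 14 of the testis genes were higher and 4 fat body genes were lower.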

Additional observations from a re-analysis of the deposited data

How the results depend on the processing

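Between 54 and 2095 genes changed when 1 library was left out, 18 to 1653 of them higher and 36 to 442 lower. The share of all genes tested that changed ran from 0.462% to 18%. Among the 44 homeodomain genes 1 to 4 changed, 1 to 4 lower and 0 higher. Without any filter 11.6% of 15676 genes and 2 homeodomain genes changed, both lower, and the calls of ara and caup were lost. Restricted to genes of at least 4 log2 CPM, 268 genes changed, 146 higher and 122 lower, which is 4.24% of 6316. Of the 25 homeodomain genes among them 1 changed, lower. Under limma-voom 130 genes changed, 56 higher and 74 lower, which is 1.16% of 11198, with 1 of 44 homeodomain genes, lower. The DESeq2 Wald test gave 725 lower genes, 21.5% of all genes changed, and 7 of 44 changed homeodomain genes, 2 of them higher. Upper-quartile factors and robust dispersions gave 1 higher homeodomain gene each, achi, and the former lost caup. In these 2 settings 15.1% and 14.6% of all genes changed. The causes were not tested.

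With the replicate block 595 genes were lower and 1 homeodomain gene was higher, Rx. Rx and toe passed the threshold under the block, and no other of the 44 genes changed its call.

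exd, at -0.01 on the log2 scale, was at 0.006 with upper-quartile factors and ranged from -0.04 to 0.009 with a library left out; it was also at 0.009 among genes of at least 4 log2 CPM. ap, at 0.03, ranged from -0.042 to 0.076 with a library left out. Other scalings put the median change over all genes between -0.007 and 0.020 on the log2 scale. With 3 libraries a group and counts under 100 in the scarcest genes, changes near 2-fold could be missed in them.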
